A study of Mus musculus with 6 samples.

Results

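The blood vessels of dorsal skin were followed through 10 endothelial genes, Pecam1, Cdh5, Esam, Kdr, Flt1, Tek, Tie1, Emcn, Vwf and Egfl7, in mice that lacked the circadian transcription factor BMAL1 and in heterozygous mice. The 10 genes were chosen by name, but with earlier results of these data known. Each was represented by the 1 probe set that the platform annotation pairs with that gene alone, so they are 10 of the 19938 genes that had such a probe set, on a table of which 23410 probe sets carry at least 1 gene symbol. No gene had a second probe set and none shared its probe set with another gene. Dorsal skin was taken from 3 Bmal1-/- mice and 3 Bmal1+/- mice, and the RNA of each animal was hybridised to its own Affymetrix Mouse Gene 1.0 ST array. All 6 animals were at postnatal day 22 by their age labels, in a C57BL/6J background and staged as telogen, when hair follicles rest. The comparison asked which transcripts differ in skin without BMAL1 while the follicles of both genotypes rest.

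The animals set limits on what the comparison holds. The Bmal1 mutation is carried by every tissue, so the vessels, the epidermis and the rest of the body lacked BMAL1 together. The controls were Bmal1+/- and no wild type array was included. Bmal1+/- replicate 1 was male and the other 5 mice were female, and a second label of that male gives day 23. The hour at which these 6 mice were sampled was not stated in the sources at hand. Arntl, the gene of BMAL1 itself, had intensities of 569, 609.8 and 664 in Bmal1-/- mice and of 325, 365 and 356 in Bmal1+/- mice, a log2 fold change of 0.79 ± 0.08 (SE, limma adjusted p = 0.00372). Whether its probes fall inside the deleted sequence could not be determined, and the genotype labels were therefore not checked by this value. The array medians ran from 219 to 235.5, with 234.5 in Bmal1-/- replicate 3. On each array 2.58% to 3.34% of values were under 16, and no array was a copy of another.

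Endothelial cells line every blood vessel. They are held together by adhesion molecules such as VE-cadherin and PECAM1, they sense vascular endothelial growth factor (VEGF) through receptor tyrosine kinases, and they receive angiopoietins through the TIE receptors. In skin the dermal vessel networks feed the epidermis and the follicles, and the vessels around the follicle are known to expand when it grows and to regress as it comes to rest.

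None of the 10 endothelial genes passed the test between genotypes. At an adjusted p under 0.05 from limma, Bmal1-/- skin had 0 of them lower, beside 0.132% of all probe sets, and 0 of them higher, beside 0.0982%. Before adjustment, 1 gene reached p under 0.05 with a higher level in Bmal1-/- skin, Egfl7, beside 4.17% of all probe sets, and 0 genes with a lower level, beside 4.6%. A second test, a regularised comparison built after Cyber-T, also called 0 of the 10. The log2 fold changes, Bmal1-/- minus Bmal1+/-, ran from -0.02 for Vwf to 0.34 for Egfl7, with a median of 0.10 beside 0.01 over all probe sets. In bulk skin, a smaller or larger number of endothelial cells and less or more RNA per endothelial cell cannot be told apart.

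The 10 genes had their highest mouse in common. Bmal1-/- replicate 3 had the highest deposited value of the 6 mice for 10 of 10 genes (8 under median scaling), while it was the highest mouse for 19.6% of all probe sets. Relative to each gene's mean over the 6 mice, the median log2 deviation was 0.01, -0.10 and 0.27 in Bmal1-/- replicates 1, 2 and 3. It was -0.10, 0.03 and -0.05 in Bmal1+/- replicates 1, 2 and 3. The median of Bmal1-/- replicate 3 corresponds to 1.20 times the 6-mouse mean, and no other mouse had a median as far from 0. The summed intensity of the 10 genes was 6017, 5654 and 7219 in Bmal1-/- mice and 5446, 5882.5 and 5735 in Bmal1+/- mice. By this sum Bmal1-/- replicate 1 lay above every control, by less than replicate 3, and replicate 2 lay within the range of the controls. Replicate 1 was within the range of the Bmal1+/- mice for 6 genes and above it for 4, and replicate 2 was within it for 4, above it for 4 and below it for 2. Without Bmal1-/- replicate 3 the median log2 fold change of the 10 genes was 0.02, with 5 positive and 5 negative, in place of 9 positive and 1 negative with all 6 mice. In 2 checks added after the values had been seen, replicate 3 was the highest mouse for 10 genes after quantile normalization, beside 14.2% of all probe sets, and for 8 genes after scaling every array to a common median, beside 11.7%. Under median scaling the exceptions were Kdr and Vwf, for which Bmal1+/- replicate 2 was the highest by less than 0.01 on the log2 scale.

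**Figure D1:**
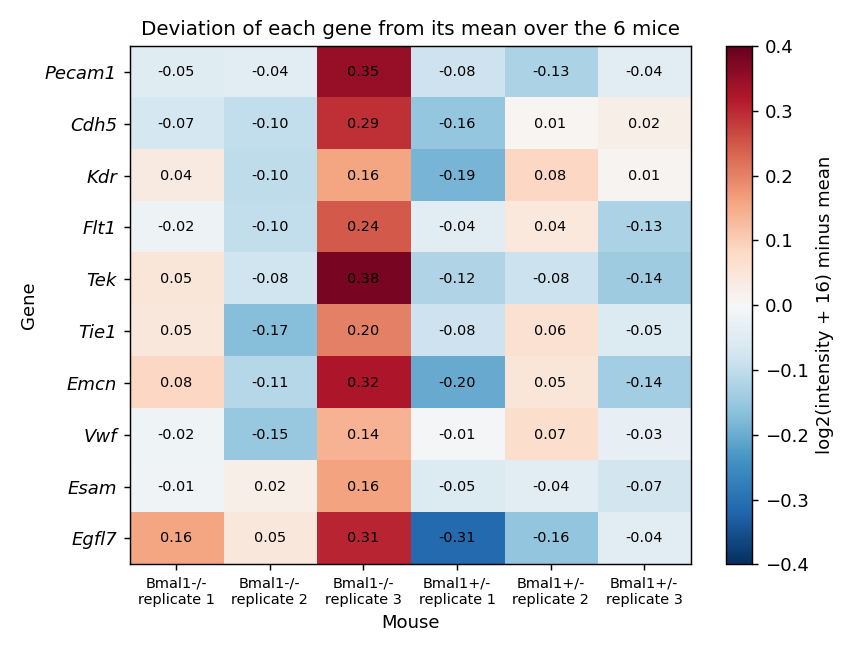
Deviation of each endothelial gene from its own mean over the 6 mice, on the scale log2(intensity + 16), with the 3 Bmal1-/- mice in the columns left of the 3 Bmal1+/- mice and 1 row per gene. The column of Bmal1-/- replicate 3 is positive in all 10 rows (median 0.27), whereas the medians of the other 5 mice lie between -0.10 and 0.03.

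Pecam1 encodes PECAM1, also called CD31, an adhesion molecule between neighbouring endothelial cells that platelets and leukocytes carry as well. Its intensity was 1005, 1009 and 1328 in Bmal1-/- mice and 982, 952 and 1009 in Bmal1+/- mice. The other 5 values thus lie close together and Bmal1-/- replicate 3 stands above them, by 0.42 on the log2 scale over the mean of the other 5. The means were 1114 ± 185 in Bmal1-/- mice and 981 ± 28.4 in Bmal1+/- mice (SD, n = 3 each), and the log2 fold change was 0.17 (95% confidence interval -0.06 to 0.40, adjusted p = 0.671 from limma). Without Bmal1-/- replicate 3 the log2 fold change was 0.04 (adjusted p = 0.932).

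Cdh5 encodes VE-cadherin, the cadherin of endothelial junctions. Its intensity was 739.7, 724 and 957 in Bmal1-/- mice, against 696, 783 and 791 in Bmal1+/- mice. Both lower Bmal1-/- values fall inside the range of the Bmal1+/- mice, and replicate 3 lies above it. The log2 fold change was 0.08 (95% confidence interval -0.16 to 0.32, adjusted p = 0.861 from limma) and it was -0.04 without that mouse.

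Esam encodes an adhesion molecule of endothelial tight junctions that is also found on platelets. Its intensity was 463, 475.5 and 525 in Bmal1-/- mice and 449.8, 454 and 444 in Bmal1+/- mice. Every Bmal1-/- value was above every Bmal1+/- value, and the controls were very close together, with means of 488 ± 33.0 in Bmal1-/- mice and 449 ± 5.12 in Bmal1+/- mice (SD, n = 3 each). The difference was small, a log2 fold change of 0.11 (95% confidence interval -0.05 to 0.27, adjusted p = 0.681 from limma). Of the 10 genes, 3 had groups that did not overlap in this way, Esam, Tek and Egfl7, all higher in Bmal1-/- mice, where 6.99% of all probe sets were above and 7.68% were below without overlap.

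For both VEGF receptors the values of the genotypes overlapped. Kdr encodes VEGFR2, the main signalling receptor for VEGF-A, and its intensity was 811, 736 and 883 in Bmal1-/- mice and 693, 839 and 797 in Bmal1+/- mice. The values interleave, and the spread was as wide among the controls, with a coefficient of variation of 9.08% in Bmal1-/- mice and 9.69% in Bmal1+/- mice. The log2 fold change was 0.06 (95% confidence interval -0.14 to 0.26, adjusted p = 0.877 from limma). It was -0.0019 without Bmal1-/- replicate 3 and -0.02 without the male control, Bmal1+/- replicate 1, which had the lowest value. Flt1 encodes VEGFR1, which binds VEGF-A tightly, signals weakly and also exists as a soluble decoy. Its intensity was 425, 402 and 514 in Bmal1-/- mice and 418, 445 and 394 in Bmal1+/- mice, where replicate 3 of the Bmal1-/- mice again stands above 5 values that overlap. Its log2 fold change was 0.08 (95% confidence interval -0.13 to 0.30, adjusted p = 0.839 from limma), and -0.02 without that mouse.

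Of the TIE receptors, one had groups that do not overlap and the other had overlapping groups. Tek encodes TIE2, the receptor that binds angiopoietins, and its intensity was 723, 659 and 913 in Bmal1-/- mice and 641, 657 and 631 in Bmal1+/- mice. The Bmal1-/- values are all above the Bmal1+/- values, but Bmal1-/- replicate 2 was above the highest control by only a small margin, and replicate 3 was 0.45 on the log2 scale above the mean of the other 5 mice, the widest such gap among the 10 genes. The means were 765 ± 132 in Bmal1-/- mice and 643 ± 13.3 in Bmal1+/- mice (SD, n = 3 each), and the log2 fold change was 0.23 (95% confidence interval -0.01 to 0.47, unadjusted p = 0.0552, adjusted p = 0.586 from limma). Without Bmal1-/- replicate 3 it was 0.10 (adjusted p = 0.843), and over all alternatives the adjusted p ran from 0.429 to 0.923. Tie1 encodes TIE1, a related receptor that modulates TIE2. Its intensity was 403, 345 and 451 in Bmal1-/- mice and 367, 408 and 375 in Bmal1+/- mice, so Bmal1-/- replicate 2 was the lowest of the 6 mice and replicate 3 the highest. The log2 fold change was 0.05 (95% confidence interval -0.17 to 0.27, adjusted p = 0.913 from limma), and -0.04 without Bmal1-/- replicate 3.

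**Figure D2:**
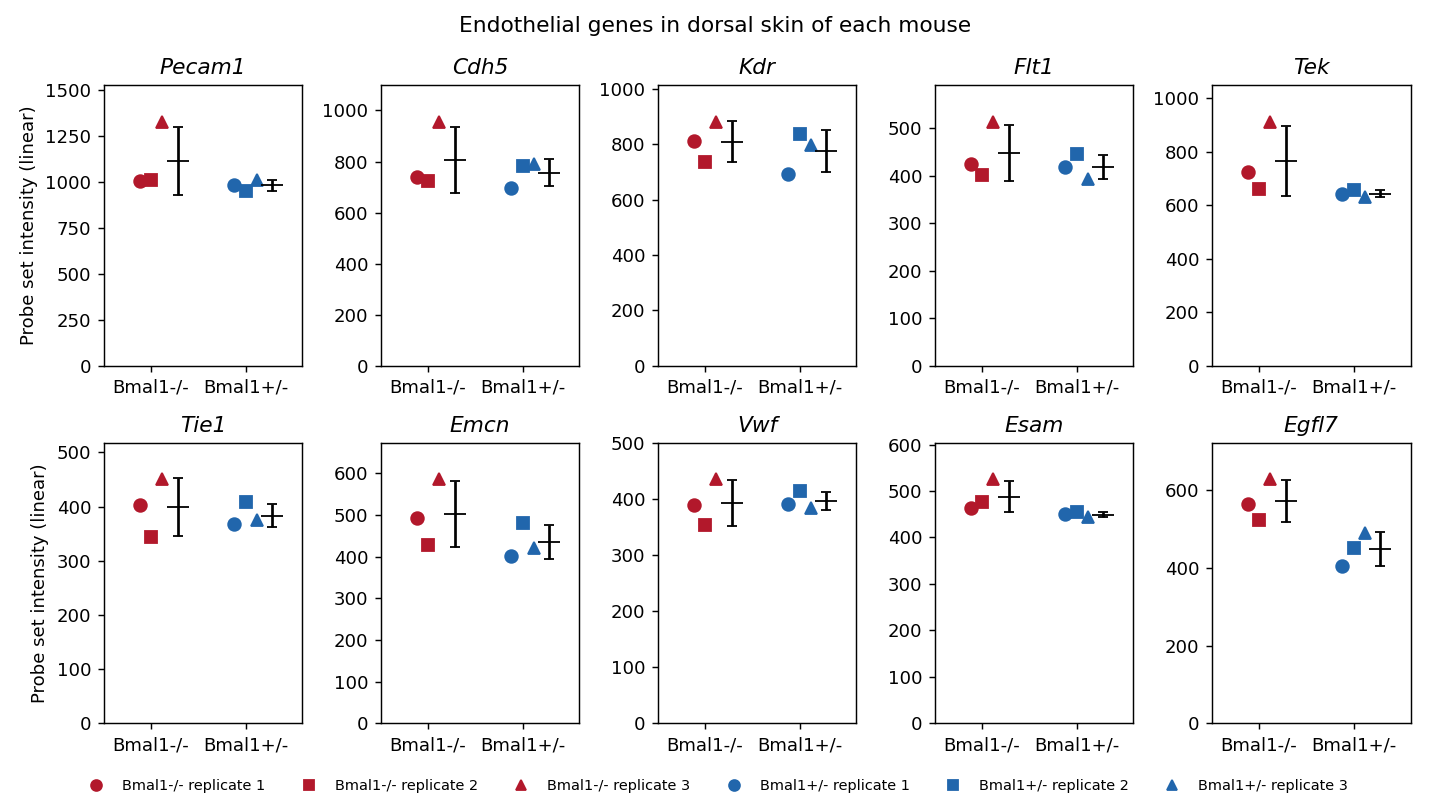
Intensity of each endothelial gene in each mouse, on a linear axis of its own per panel, with the 3 Bmal1-/- mice left of the 3 Bmal1+/- mice and the mean ± SD of each genotype. Bmal1-/- replicate 3 is the highest point of every panel in these deposited values (of 8 panels after median scaling, without Kdr and Vwf), and the genotypes overlap in 7 of the 10 panels, all but Tek, Esam and Egfl7.

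Emcn encodes endomucin, a sialomucin of the endothelial surface known from capillaries and veins. Its intensity was 493, 428 and 586 in Bmal1-/- mice and 403, 481 and 421 in Bmal1+/- mice. The groups overlap through Bmal1-/- replicate 2, and the lowest value came from the male control. The means were 502.5 ± 79.3 in Bmal1-/- mice and 435 ± 41.0 in Bmal1+/- mice (SD, n = 3 each), and the log2 fold change was 0.19 (95% confidence interval -0.06 to 0.45, adjusted p = 0.666 from limma), and 0.08 without Bmal1-/- replicate 3.

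Vwf encodes von Willebrand factor, the clotting protein that endothelial cells store in Weibel-Palade bodies and that megakaryocytes make too. Its intensity was 388, 353 and 435 in Bmal1-/- mice and 391, 413 and 384 in Bmal1+/- mice. It was the single gene of the 10 whose fold change was below 0, with a log2 fold change of -0.02 (95% confidence interval -0.21 to 0.18, adjusted p = 0.966 from limma). Its highest mouse was Bmal1-/- replicate 3 in the deposited values but not after median scaling, and its lowest was Bmal1-/- replicate 2.

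Egfl7, which encodes a secreted protein of the endothelial matrix, showed the largest difference of the 10. Its intensity was 565, 522 and 628 in Bmal1-/- mice and 404.5, 451.5 and 490.3 in Bmal1+/- mice. All 3 Bmal1-/- mice were above all 3 Bmal1+/- mice, with replicate 3 highest among the Bmal1-/- mice and the male lowest among the Bmal1+/- mice. The means were 572 ± 53.3 in Bmal1-/- mice and 449 ± 43.0 in Bmal1+/- mice (SD, n = 3 each), or 1.27 times as high in Bmal1-/- skin. The log2 fold change was 0.34 (SE 0.09, 95% confidence interval 0.13 to 0.55, unadjusted p = 0.00469), and it did not pass after adjustment over all probe sets (adjusted p = 0.292 from limma, 0.207 to 0.646 over the alternatives). Without Bmal1-/- replicate 3 it was 0.27 (adjusted p = 0.618), where Pecam1, Tek, Emcn and Esam were at 0.04, 0.10, 0.08 and 0.06. It was also 0.27 without the male control (adjusted p = 0.643).

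The Egfl7 gene carries a microRNA of endothelial cells, miR-126, inside one of its introns. The mature 3p strand is shown because it lies within Egfl7 on the plus strand of chromosome 2 (GRCm38.p6, chr2:26591402-26591423, sequence from RefSeq), with its seed, bases 2 to 8, in capitals.
mmu-miR-126a-3p: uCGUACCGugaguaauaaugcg
The probe set of Mir126a had low intensities of 41.6, 40.2 and 40.4 in Bmal1-/- mice and of 33.2, 49.0 and 46.0 in Bmal1+/- mice. The Bmal1-/- values lie inside the range of the controls and Bmal1-/- replicate 3 was not the highest mouse. The log2 fold change was -0.04 (SE 0.13, adjusted p = 0.95 from limma). How much of this signal came from the mature microRNA cannot be told from the array.

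The start sites of the genes were searched for 4 short motifs in RefSeq windows that run from 250 bases before to 50 bases after a start. CACGTG and CACGTT are E-boxes of the kind that CLOCK/BMAL1 binds, and CAGGAAG and CCGGAAG are motifs of the ETS transcription factors that many endothelial genes use. Both strands were searched. Of all 32851 windows, 7.15% held CACGTG, 4.68% CACGTT, 13.3% CAGGAAG and 8.86% CCGGAAG, counting either strand. Windows were at hand for 6 of the 10 genes, 3 for Egfl7 and 1 each for Emcn, Flt1, Kdr, Tek and Tie1, whereas Pecam1, Cdh5, Vwf and Esam were not analysed here. Of these 8 windows, 3 held CAGGAAG, from 2 genes, and no window held the other 3 motifs. The 3 windows are printed so that the gene with the largest difference, Egfl7, can be read beside Emcn. Capitals mark CAGGAAG or its reverse complement CTTCCTG, and each window is given 5′ to 3′ on the plus strand of GRCm38.p6.
Egfl7, chr2:26580833-26581132: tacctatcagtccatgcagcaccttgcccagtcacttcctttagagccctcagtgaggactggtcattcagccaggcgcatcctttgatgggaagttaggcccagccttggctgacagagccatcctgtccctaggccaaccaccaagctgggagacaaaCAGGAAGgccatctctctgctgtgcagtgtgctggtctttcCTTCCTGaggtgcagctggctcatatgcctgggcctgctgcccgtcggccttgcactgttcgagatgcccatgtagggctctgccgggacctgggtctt
Egfl7, chr2:26583615-26583914: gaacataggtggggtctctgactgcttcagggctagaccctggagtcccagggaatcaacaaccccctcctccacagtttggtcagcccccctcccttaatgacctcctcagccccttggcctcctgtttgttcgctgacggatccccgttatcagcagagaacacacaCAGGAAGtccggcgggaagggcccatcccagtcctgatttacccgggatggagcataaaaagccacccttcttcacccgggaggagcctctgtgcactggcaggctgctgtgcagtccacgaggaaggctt
Emcn, chr3:137340828-137341127: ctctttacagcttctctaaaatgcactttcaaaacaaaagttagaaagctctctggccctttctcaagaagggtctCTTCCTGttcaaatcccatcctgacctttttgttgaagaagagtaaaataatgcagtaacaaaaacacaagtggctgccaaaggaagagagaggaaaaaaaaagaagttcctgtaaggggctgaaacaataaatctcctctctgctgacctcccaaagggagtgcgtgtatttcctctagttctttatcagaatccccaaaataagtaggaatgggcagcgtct
The first match lies 90 bases before the start in the first Egfl7 window, 81 bases before it in the second and 174 bases before it in the Emcn window. A match is a stretch of letters and not a binding site, and these arrays do not tell which start was used.

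**Figure D3:**
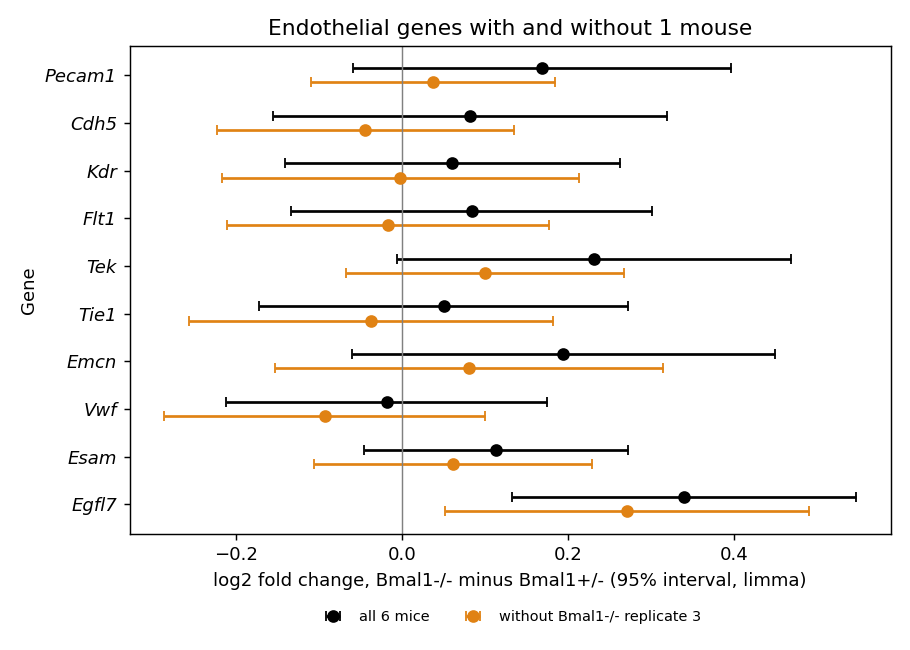
Log2 fold change of each endothelial gene, Bmal1-/- minus Bmal1+/-, with its 95% confidence interval from limma, for all 6 mice and without Bmal1-/- replicate 3. With all 6 mice only the interval of Egfl7 (0.13 to 0.55) lies above 0, and without Bmal1-/- replicate 3 the other 9 genes move to between -0.09 and 0.10.

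The rest of the endothelial program was read from a list of 37 further endothelial genes, of which 36 were measured. None passed the test in either direction. Before adjustment 3 reached p under 0.05 with a higher level in Bmal1-/- mice (beside 4.17% of all probe sets) and 2 with a lower level (beside 4.6%), and the median log2 fold change was 0.07 (23 positive, 13 negative). Bmal1-/- replicate 3 was the highest mouse for 22 of the 36 (61.1%), with a median log2 deviation of 0.14. Without that mouse the median log2 fold change was -0.01, with 15 positive and 21 negative. The 22 genes include S1pr1, the sphingosine-1-phosphate receptor of endothelium, and the transcription factor gene Sox18, both picked after their values had been seen. For each, Bmal1-/- replicate 3 exceeded the next mouse by 0.16 on the log2 scale, where the other 5 mice spanned 0.39. S1pr1 had intensities of 670.2, 507 and 752 in Bmal1-/- mice and of 542, 586 and 539 in Bmal1+/- mice. Sox18 had 286, 359.8 and 405 in Bmal1-/- mice and 271, 279 and 344 in Bmal1+/- mice. For both genes the genotypes overlap, and neither passed the test (adjusted p = 0.697 for S1pr1 and 0.674 for Sox18 from limma).

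For some other endothelial genes Bmal1-/- replicate 3 was not the highest mouse. Icam2, an adhesion molecule of endothelium and platelets, had the largest positive change of the list, with intensities of 176, 167 and 170.4 in Bmal1-/- mice and of 131, 122 and 139.5 in Bmal1+/- mice. The groups do not overlap and the 3 Bmal1-/- mice are alike, with replicate 1 highest, for a log2 fold change of 0.35 ± 0.09 (SE, limma adjusted p = 0.240). Aplnr, the apelin receptor, had the largest negative change, with 204, 248 and 283 in Bmal1-/- mice against 286, 306 and 348 in Bmal1+/- mice, a log2 fold change of -0.34 ± 0.12 (SE, limma adjusted p = 0.449). With these, 3 of the 36 genes were above and 4 were below in Bmal1-/- mice without overlap, beside 6.99% and 7.68% of all probe sets. The other 5, named after their values had been seen, are Plvap and Cldn5, above, and Cd34, Acvrl1 and Stab1, below. Plvap, which forms the diaphragms of endothelial fenestrae and caveolae, had 673.5, 617 and 665 in Bmal1-/- mice and 553, 502 and 504 in Bmal1+/- mice (log2 fold change 0.32, adjusted p = 0.164). Cldn5, the claudin of endothelial tight junctions, had 560.5, 535 and 604 in Bmal1-/- mice and 434.5, 443 and 523 in Bmal1+/- mice (log2 fold change 0.27, adjusted p = 0.391). For Cldn5 Bmal1-/- replicate 3 was the highest mouse, and without it the log2 fold change was 0.23 (adjusted p = 0.721). Cd34, which marks endothelium and also hair follicle stem cells and dermal cells in mouse skin, had 4248, 4703 and 4036 in Bmal1-/- mice and 5256, 5015 and 5231 in Bmal1+/- mice (log2 fold change -0.26, adjusted p = 0.240). The genes of this list thus lay on both sides, and none passed the test.

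Of 32 ligands, receptors and regulators of vessel growth, 30 were measured and 0 passed the test, with a median log2 fold change of -0.01 (13 positive, 17 negative). Vegfa, the ligand of KDR and FLT1, had the largest change of the list. Its intensity was 885, 842 and 863 in Bmal1-/- mice and 619, 743 and 646 in Bmal1+/- mice. The groups are separate and the Bmal1-/- mice lie close together, for a log2 fold change of 0.36 ± 0.08 (SE, limma unadjusted p = 0.000881), which did not pass after adjustment (adjusted p = 0.145 from limma, 0.0807 to 0.389 over the alternatives). It was 0.36 without Bmal1-/- replicate 3. Pgf, placental growth factor, a ligand of FLT1, had 92.0, 117 and 122.5 in Bmal1-/- mice and 139, 126 and 133 in Bmal1+/- mice, a log2 fold change of -0.24 ± 0.11 (SE, limma adjusted p = 0.591). Hif1a, a hypoxia-inducible factor named after its values had been seen, had 1543, 1531 and 1514 in Bmal1-/- mice and 1838, 1690.0 and 1720.0 in Bmal1+/- mice, a log2 fold change of -0.19 ± 0.06 (SE, limma adjusted p = 0.336). The angiopoietin genes Angpt1 and Angpt2, whose proteins bind TIE2, differed by -0.06 and 0.03 on the log2 scale (limma adjusted p = 0.858 and 0.948). Bmal1-/- replicate 3 was the highest mouse for 10 of these 30 genes (33.3%, beside 19.6% of all probe sets). Bmal1+/- replicate 3 was the highest for 8 (26.7%, beside 23.5%). The median log2 deviation of the list was 0.04 in Bmal1-/- replicate 3 and 0.05 in Bmal1+/- replicate 3.

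Markers of the other cell types of skin were set beside the pattern of Bmal1-/- replicate 3. That mouse was the highest for 0 of 8 keratinocyte genes and the lowest for 6 of them (75%), with a summed intensity of 46114, against 49142 and 51508 in the other Bmal1-/- mice and 48669 to 53795 in Bmal1+/- mice. For 7 dermal fibroblast genes it was the highest once and the lowest 3 times, and their summed intensity was 66278, 72654 and 65389 in Bmal1-/- mice and 78850.0, 71513 and 74147 in Bmal1+/- mice. For 6 adipocyte genes it was the highest 3 times, with sums of 9990, 8972.5 and 11066 in Bmal1-/- mice and of 9444, 9618 and 8588 in Bmal1+/- mice. Of 10 measured genes of platelets, blood and leukocytes it was the highest for 1, Alas2, and of 7 striated muscle genes for 1. Keratinocyte and fibroblast markers were thus low in the mouse in which the endothelial genes were high. Fibroblast markers were about as low in Bmal1-/- replicate 1, with a median log2 deviation of -0.11 beside -0.12 in replicate 3. In replicate 3 the median was above 0 for adipocyte genes (0.17) and striated muscle genes (0.10). The striated muscle genes also had a highest mouse largely in common, but another one. Bmal1+/- replicate 2 was the highest for 6 of the 7, with a median log2 deviation of 0.19. The part of these lists in the pattern was not tested. None of these lists held a gene that passed the test.

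**Figure D4:**
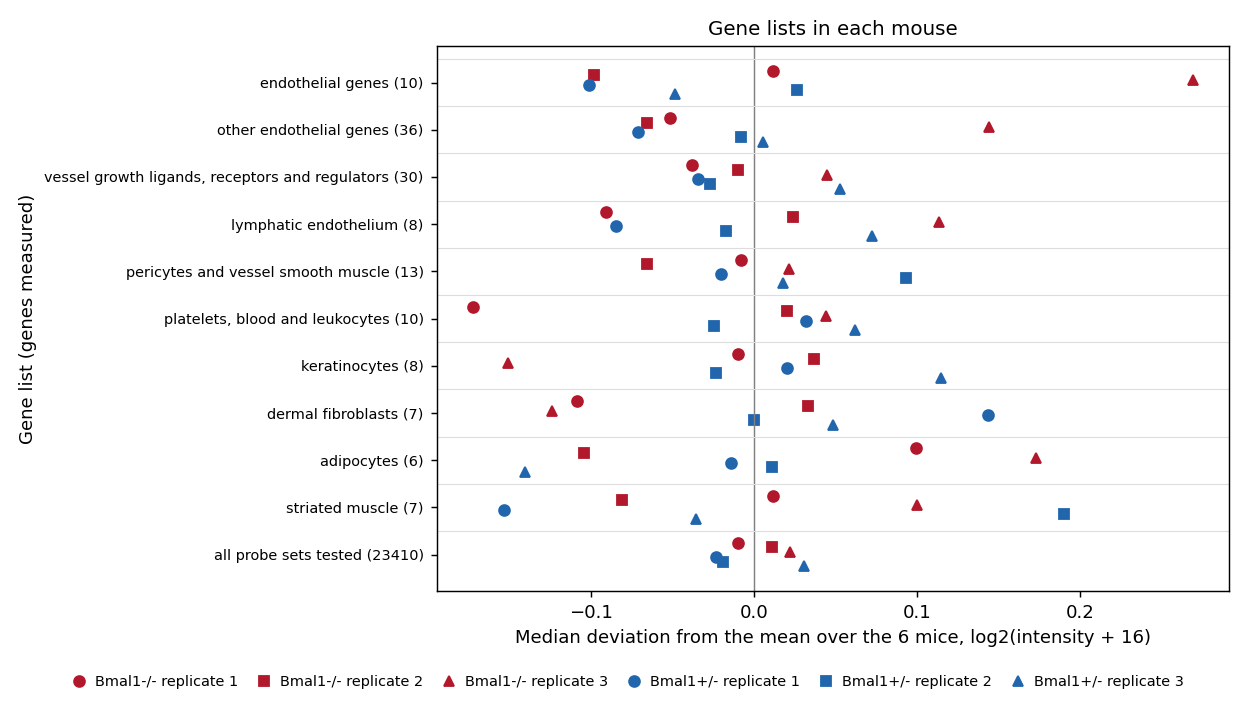
Median deviation from the 6-mouse mean, on the scale log2(intensity + 16), of each gene list in each mouse, with Bmal1-/- mice in red and Bmal1+/- mice in blue. Bmal1-/- replicate 3 lies at 0.27 for the 10 endothelial genes, 0.14 for the other endothelial genes and 0.02 for all probe sets. It lies at 0.17 for adipocytes, 0.11 for lymphatic endothelium, 0.10 for striated muscle, -0.15 for keratinocytes and -0.12 for dermal fibroblasts.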

How the data were processed

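RNA from dorsal skin of 3 Bmal1-/- and 3 Bmal1+/- mice was measured with 1 array per mouse. The values that the authors deposited are linear probe set intensities, for which the submitters' processing notes name PLIER 2.0 and Affymetrix Expression Console 1.1. How background and differences between arrays were handled was not given in the sources used here, and no normalization was added. Genes were named through the platform annotation: of 35557 probe sets, 21789 are paired with 1 gene, 1621 with several and 12147 with none. Values were analysed as log2(intensity + 16), which understates the fold change of dim genes. The 23410 probe sets with at least 1 symbol were tested, Bmal1-/- minus Bmal1+/-, two-sided, by lmFit and trended eBayes of limma 3.58.1 under R 4.3.3, with Benjamini-Hochberg adjustment over all of them, and a gene was called at an adjusted p under 0.05. Intervals and p-values rest on 3 mice per genotype, and the number of arrays limits the precision. Deviations of a mouse are from the mean of the 6 mice per gene. Summed intensities add 1 probe set per gene. The procedure was also run on simulated arrays with known changes, all larger than those of the endothelial genes. The simulated noise held no shift shared by the genes of a mouse. The run therefore cannot show how changes as small as those reported here are detected.

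The 10 genes and the other lists were chosen with earlier results of these data known. Besides the 10 genes, the text names the 2 genes of each list with the largest absolute change where none was called, in the report or among the other observations, and says where a gene was named after its values had been seen. The 17 alternative settings used another offset (1 or 64), quantile normalization or median scaling, only probe sets of mean intensity 64 or more, other sets of probe sets, no variance trend, a Cyber-T type test, a replicate block or a sex term, or dropped 1 array. Since 1 mouse was male, the sex term and the removal of Bmal1+/- replicate 1 give equal fold changes. The Cyber-T type test pooled variances over 101 neighbouring probe sets, weighted as 10 observations. Promoter windows and the microRNA come from RefSeq tables of GRCm38.p6. Selp, Vash1, Ccl21a, Hbb-b1, Hba-a1, Gp1ba and Cfd had no probe set of their own and were not analysed here. Flt4 and Des each stand in 2 lists. Figures were drawn with Python 3.11.15 and matplotlib 3.10.9.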

Additional observations from a re-analysis of the deposited data

How the results depend on the processing

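None of the 10 endothelial genes passed the test under any of the 17 alternatives, where the lowest adjusted p of a gene was 0.207. Of 170 fold changes under the alternatives, 8 turned their sign, in 5 genes whose fold change was below 0.1 in size. Kdr was at -0.017 with a sex term. Leaving out 1 mouse gave -0.044 to 0.15 for Cdh5, -0.017 to 0.13 for Kdr, -0.0167 to 0.15 for Flt1, -0.0375 to 0.15 for Tie1 and -0.093 to 0.052 for Vwf, where the low end of Cdh5, Flt1 and Tie1 came without Bmal1-/- replicate 3. The median of the 10 genes ran from 0.02 to 0.15 on leaving out 1 mouse, lowest without Bmal1-/- replicate 3. The 17 genes named as the 2 of largest absolute change in each other list kept their sign in all 289 values, and none passed. This count leaves out genes named for other reasons. Of those, Prox1 went from 0.01 to -0.10 without Bmal1-/- replicate 3. The number of probe sets called over the whole table moved more than the endothelial genes did. It was 31 lower and 23 higher, 19 and 15 with all probe sets of the table tested, 16 and 11 without the variance trend, and 87 and 47 with the Cyber-T type test. Leaving out 1 mouse gave 22 to 34 lower and 13 to 23 higher, with 13 higher without Bmal1-/- replicate 3 and 15 higher without Bmal1-/- replicate 1 or Bmal1+/- replicate 2. The cause of these changes was not tested.

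Replicate numbers are shared by the genotypes. Deviations from the genotype means correlated at 0.08, -0.35 and 0.06 between mice of the same number. Between mice of different number the correlations ran from -0.26 to 0.26. Deviations from means of 3 mice cannot decide whether the numbers pair the mice. The sample titles call the mice littermates, but which of them shared a litter was not given in the sources at hand. A fit with a replicate block gave 34 lower and 20 higher probe sets and 0 of the 10 endothelial genes, with an adjusted p of 0.309 for Egfl7.

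With 3 mice per genotype the 95% confidence interval of the log2 fold change still ran from -0.21 to 0.18 for Vwf and from -0.06 to 0.40 for Pecam1. Differences inside such intervals remain compatible with the values of these arrays. Bulk tissue does not show which cells carried a transcript.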

Other observations

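Lymphatic vessels and the wall cells of blood vessels were measured beside the blood endothelium. Of 9 lymphatic genes 8 were measured, with a median log2 fold change of 0.02 and none passing the test. Pdpn, podoplanin, which lymphatic endothelium shares with fibroblasts and keratinocytes, had intensities of 966, 1012 and 1068 in Bmal1-/- mice and of 1274, 1145 and 1094 in Bmal1+/- mice, groups that do not overlap (log2 fold change -0.20, SE 0.07, adjusted p = 0.457 from limma). Itga9, an integrin subunit known from lymphatic valves, had a log2 fold change of -0.19 (adjusted p = 0.626). Prox1, the transcription factor of lymphatic identity, was named after its values had been seen. It had 165, 209.5 and 237 in Bmal1-/- mice and 184, 196.5 and 223 in Bmal1+/- mice, with Bmal1-/- replicate 3 highest. That mouse was the highest for 3 of the 8 genes, beside 19.6% of all probe sets. Bmal1+/- replicate 3 was also the highest for 3, beside 23.5%.

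Of 13 genes of pericytes and vessel smooth muscle, 0 passed the test and the median log2 fold change was -0.05. Bmal1-/- replicate 3 was the highest mouse for 2 of them, and Bmal1+/- replicate 2 was the highest for 8. Kcnj8, a potassium channel subunit of pericytes, had 315, 290.2 and 333 in Bmal1-/- mice and 356, 395 and 358 in Bmal1+/- mice, without overlap (log2 fold change -0.23, SE 0.08, adjusted p = 0.450 from limma). Des, desmin, which striated muscle also makes, had a log2 fold change of 0.18 (adjusted p = 0.751).

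The largest changes in the lists of other cells were a log2 fold change of 0.34 for Alas2, an enzyme of heme synthesis in red cell precursors, and of -0.23 for the platelet gene Pf4 (adjusted p = 0.735 and 0.449 from limma). Alas2 had intensities of 620, 522 and 1076 in Bmal1-/- mice and of 558, 417 and 720.5 in Bmal1+/- mice. Bmal1-/- replicate 3 was 0.93 on the log2 scale above the mean of the other 5 mice. Without that mouse the log2 fold change of Alas2 was 0.04. In the upper epidermis the largest changes were 0.17 for Lor and -0.14 for Krt1 (adjusted p = 0.450 and 0.623 from limma). In the dermal matrix they were -0.30 for Dpt and -0.18 for Lum (0.122 and 0.626). Lep, leptin of fat cells, had 86.3, 467 and 689 in Bmal1-/- mice and 675, 584 and 493 in Bmal1+/- mice, a log2 fold change of -0.87 (adjusted p = 0.693 from limma), with Bmal1-/- replicate 1 far below the other 5 mice and a log2 fold change of -0.03 without it. Pparg, the regulator of fat cell differentiation, had 0.26 (adjusted p = 0.221), and the muscle gene Myl1 had -0.18 (adjusted p = 0.684).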
